A study of Mus musculus with 16 samples.

Results

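The ER membrane protein complex (EMC) was followed at the level of its mRNAs in 4T1 and 67NR cells, with and without the cPLA2α inhibitor CIX. Its members were taken by name: 10 mouse genes (Emc1, Emc2, Emc3, Emc4, Mmgt1, Emc6, Emc7, Emc8, Emc9 and Emc10), all of which were found among the 33072 genes of the deposited table. The complex was selected on a result of these samples, namely the higher Emc1 level in 4T1 cells treated with CIX. Emc1 is therefore described without a test in every comparison that uses 4T1 samples, whereas the other 9 subunits belong to the complex by name and were tested throughout. 4T1 and 67NR are isogenic mammary carcinoma lines of BALB/c mice that stem from a single spontaneous tumor, 4T1 being metastatic and 67NR non-metastatic. Each line was grown in culture and received either vehicle (DMSO) or 15 µM CIX for 24 h before poly-A selected, strand-specific RNA sequencing. The 4 groups of line by treatment held 4 samples each, 16 in all, which the methods of the study call biological replicates. Each line is a single culture model without other cell types of a tumor, so that levels in a tumor are not covered.

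The EMC sits in the membrane of the endoplasmic reticulum and inserts transmembrane segments into it, in particular those of tail-anchored proteins and of multipass proteins such as receptors, channels and transporters. Its membrane core is an insertase related to bacterial YidC, a cytosolic cap receives clients, and a large lumenal part surrounds the membrane domain from the other side. Loss of core subunits is known to destabilize the rest of the complex, so the subunits are usually described as a unit. The mRNA levels given here do not measure the proteins.

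Emc1 (ENSMUSG00000078517, chr4:139352587-139378730, plus strand) encodes the largest subunit, whose lumenal part carries β-propellers. The insertase core is formed by the proteins of Emc3 (ENSMUSG00000030286, chr6:113514874-113531652, minus strand) and Emc6 (ENSMUSG00000047260, chr11:73175519-73177037, minus strand), next to that of Mmgt1 (ENSMUSG00000061273, chrX:56585512-56598069, minus strand), which is EMC5 under another name. The cytosolic cap is built on the protein of Emc2 (ENSMUSG00000022337, chr15:43477229-43527763, plus strand). To it binds the product of Emc8 (ENSMUSG00000031819, chr8:120653914-120668573, minus strand) or that of its paralog Emc9 (ENSMUSG00000022217, chr14:55581516-55585302, minus strand), which take the same place in the complex. Emc4 (ENSMUSG00000027131, chr2:112363011-112368027, minus strand) encodes a membrane subunit. The products of Emc7 (ENSMUSG00000055943, chr2:112454997-112472162, plus strand) and Emc10 (ENSMUSG00000008140, chr7:44489937-44496529, minus strand) reach into the lumen. Positions are those of the GENCODE annotation of GRCm38.

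The total estimated count of a sample was between 21715700 and 29450629. Levels are given as CPM, the counts scaled to a common library total after TMM normalization, and as TPM wherever genes are compared with each other, since only TPM is divided by transcript length. A level of 3 counts, taken as the floor, corresponded to between 0.107 and 0.137 CPM. The summed level of 5 epithelial markers (Epcam, Cdh1, Krt8, Krt18 and Krt14) lay between 2411 and 2763 CPM in 4T1 samples. It reached 1.07 to 5.19 CPM in 67NR samples, where Epcam did not exceed 0.317 CPM. The mesenchymal markers Vim, Fn1, Cdh2, Col1a1 and Pdgfrb summed to between 2484 and 5208 CPM in 4T1 and to between 5979 and 9956 CPM in 67NR. Markers of leukocytes, endothelium and macrophages (Ptprc, Pecam1 and Cd68) stayed between 9.12 and 199 CPM in sum. The mesenchymal and the last sum were both higher with CIX than with vehicle in either line, mostly through Vim and Cd68. Single markers went the other way without overlap, namely Pdgfrb in 67NR (41.9 to 60.2 CPM with vehicle and 28.7 to 34.9 CPM with CIX), Ptprc in 4T1 (0.947 to 1.44 and 0.129 to 0.930 CPM) and Epcam in 4T1 (311 to 318 and 175 to 203 CPM). The part of these markers in the results below was not tested.

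Emc1 stood apart from the rest of the complex in a single group, the 4T1 cells without CIX. In vehicle treated 4T1 cells its level was 5.76, 2.88, 4.09 and 6.53 CPM in the 4 samples. In 4T1 cells treated with CIX it was 65.7, 46.3, 37.9 and 46.0 CPM. The lowest CIX sample was thus above the highest vehicle sample by a wide margin. In 67NR cells the level was 43.6, 60.6, 57.9 and 75.9 CPM with vehicle and 50.8, 77.0, 79.7 and 77.1 CPM with CIX. The 4T1 cells with CIX therefore reached the range of the 67NR cells, and the vehicle treated 4T1 cells were the only group below it. The fitted log2 fold change of Emc1 between CIX and vehicle in 4T1 was 3.35 (95% confidence interval 2.72 to 3.99), a 10.2-fold difference, at rank 9 of the 11664 estimates of that comparison. These values chose the complex and are a description. In bulk RNA, fewer cells that express a gene and less of its RNA per cell cannot be told apart.

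**Figure D1:**
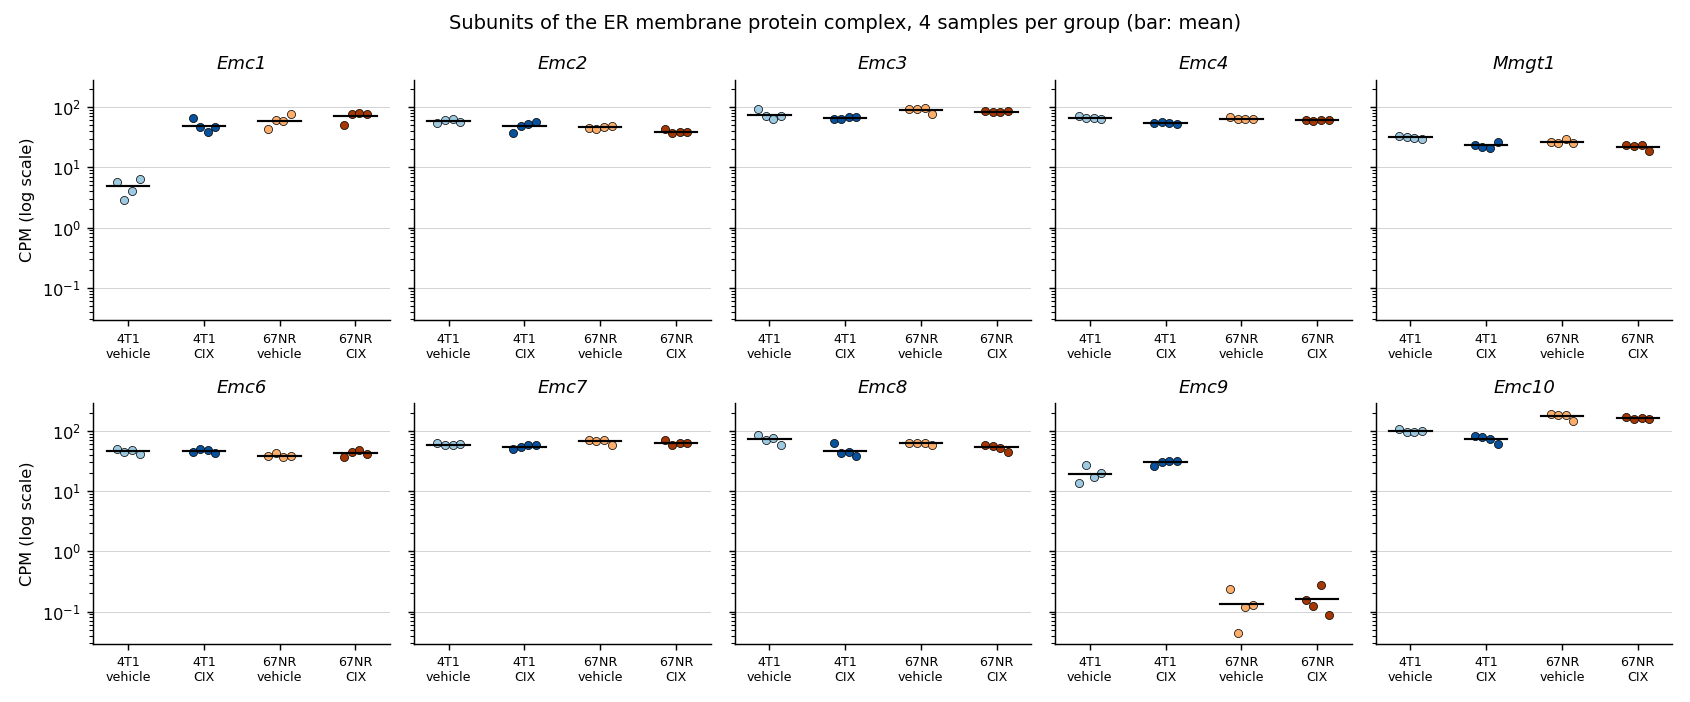
Level of each subunit in CPM on a logarithmic axis, for the 4 samples (points) and the mean (bar) of each group. Emc1 is low in the 4 vehicle treated 4T1 samples alone, at 2.88 to 6.53 CPM, and Emc9 is below 0.28 CPM in all 8 samples of 67NR, while the other 8 subunits differ much less between groups.

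Within a library, Emc1 was next compared with the median of the other 9 subunits, each divided by its transcript length, a ratio that does not depend on the scaling between libraries. In vehicle treated 4T1 cells, Emc1 amounted to 2.66%, 1.52%, 2.10% and 3.77% of the median of the other subunits. With CIX these shares were 41.2%, 30.6%, 23.4% and 26.3%. In 67NR cells Emc1 took 26.5%, 36.8%, 36.2% and 49.5% of that median with vehicle, against 33.8%, 52.9%, 59.0% and 65.6% with CIX. The mean log2 ratio of Emc1 to the other subunits was −5.39 ± 0.55 (SD, n = 4) in vehicle treated and −1.75 ± 0.35 in CIX treated 4T1 cells, a difference of 3.64. In 67NR cells it was −1.46 ± 0.37 with vehicle and −0.96 ± 0.42 with CIX. This difference of 0.50 in 67NR did not pass an unpaired test (two-sided exact permutation test, n = 4 and 4, p = 0.171, where 0.0286 is the smallest p that this design allows).

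**Figure D2:**
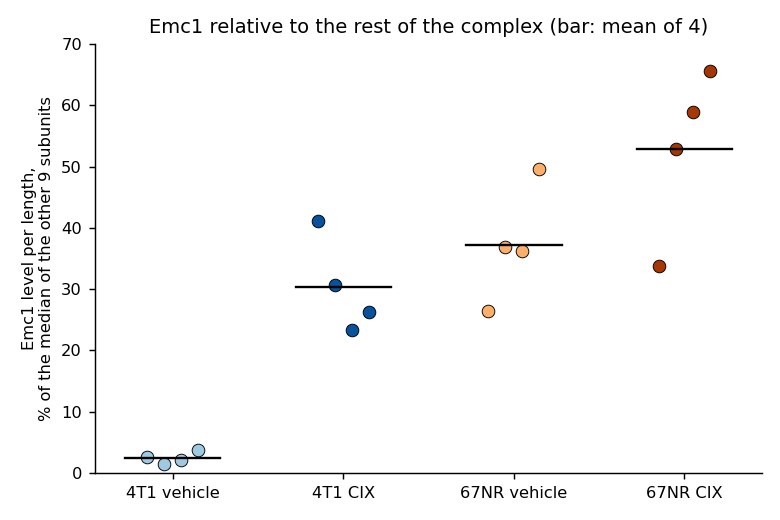
Emc1 level per length as a percentage of the median level per length of the other 9 subunits, for each sample (points) and as the mean (bar) of each group. The vehicle treated 4T1 samples lie between 1.52% and 3.77%, and the samples of the other 3 groups lie between 23.4% and 65.6%.

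The 67NR samples did not enter the choice of the complex, so the response of Emc1 was tested there. Emc1 was 1.18-fold higher with CIX in the fit, with overlapping groups (log2 fold change 0.24 ± 0.20 SE, 95% confidence interval −0.21 to 0.70, adjusted p = 0.437 by limma-voom over 11566 genes). The difference between the responses of both lines was 3.11 on the log2 scale (95% confidence interval 2.30 to 3.91), which contains the values that chose Emc1 and is given without a test. Relative to vehicle treated 67NR cells, Emc1 in vehicle treated 4T1 cells was lower by a fitted log2 difference of −3.66 (95% confidence interval −4.34 to −2.99), again as a description that shares the vehicle samples with the comparison above.

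The other 9 subunits did not follow Emc1 in CIX treated 4T1 cells. None of them was called at an adjusted p below 0.001 by limma-voom fitted to the 4T1 samples alone. This fit called 1087 genes or 9.32% of the 11664 genes tested. The threshold is that of the study, which reports more differentially expressed genes for this comparison than this fit called. The cause of that difference was not tested. A common fit of all 16 samples called 2680 genes and 0 of the 9 subunits. In the fit to the 4T1 samples alone, the estimates of 7 of the 9 were below 0 and that of Emc9 was above. That of Emc6 was 0.00 with a sign that changed between alternative fits. The median log2 fold change of the 9 was −0.29, and the median of all genes tested was −0.01. Of these 9 subunits, 5 had an unadjusted p below 0.05 with limma-voom (Emc4, Mmgt1, Emc8, Emc9 and Emc10), where 51.1% of all genes tested had one. With edgeR 0 were called, at a background of 8.86%, and 5 had an unadjusted p below 0.05, at a background of 51.0%. With DESeq2 1 was called, Mmgt1, where 26.5% of all genes were, and 5 had an unadjusted p below 0.05, where 52.5% of all genes had. The same 5 had an adjusted p below 0.05, of which 4 were lower and 1 higher, where 20.8% of all genes tested were lower and 21.9% higher at that level.

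In the insertase core, Mmgt1 differed most. Its level was 33.6, 32.3, 30.4 and 30.1 CPM with vehicle and 23.5, 21.8, 20.8 and 26.6 CPM with CIX, so that every CIX sample was below every vehicle sample. The log2 fold change of Mmgt1 was −0.47 ± 0.11 (SE, adjusted p = 0.00883 by limma-voom), which missed the threshold of 0.001. Emc3 was at 64.2 to 93.1 CPM with vehicle and 62.9 to 67.8 CPM with CIX (log2 fold change −0.19 ± 0.12, adjusted p = 0.235 by limma-voom). Its highest value, 93.1 CPM in the vehicle sample numbered 3, accounts for much of the distance between the means, and without it the estimate was −0.08. For Emc6 the fitted difference was 0.00 ± 0.10 on the log2 scale, with a 95% confidence interval of −0.23 to 0.23. Its levels of 41.3 to 49.7 CPM with vehicle and 42.9 to 50.2 CPM with CIX covered the same range.

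Emc4, a membrane subunit outside this core, was 69.8, 65.2, 66.4 and 62.7 CPM with vehicle and 55.1, 56.4, 55.0 and 52.9 CPM with CIX. All of its CIX samples were below its vehicle samples, at a log2 fold change of −0.28 ± 0.09 (SE, adjusted p = 0.0251 by limma-voom). Emc2, the base of the cytosolic cap, had 53.4 to 63.6 CPM with vehicle and 37.7 to 57.0 CPM with CIX, with overlapping groups (log2 fold change −0.29 ± 0.14, adjusted p = 0.117). Without the CIX sample numbered 4 this estimate was −0.17. On the lumenal side, Emc10 was 107, 95.8, 97.1 and 97.4 CPM with vehicle and 82.7, 78.5, 73.7 and 60.6 CPM with CIX. Here too the groups did not overlap (log2 fold change −0.45 ± 0.12, adjusted p = 0.0111 by limma-voom). Emc7 stayed between 57.3 and 62.0 CPM with vehicle and between 49.4 and 58.8 CPM with CIX, with a log2 fold change of −0.13 ± 0.09 and overlapping groups (adjusted p = 0.289). In all, 3 of the 9 subunits had all CIX samples below all vehicle samples (Emc4, Mmgt1 and Emc10) and 0 had them all above, where 18.7% of all genes tested were entirely below and 21.2% entirely above.

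**Figure D3:**
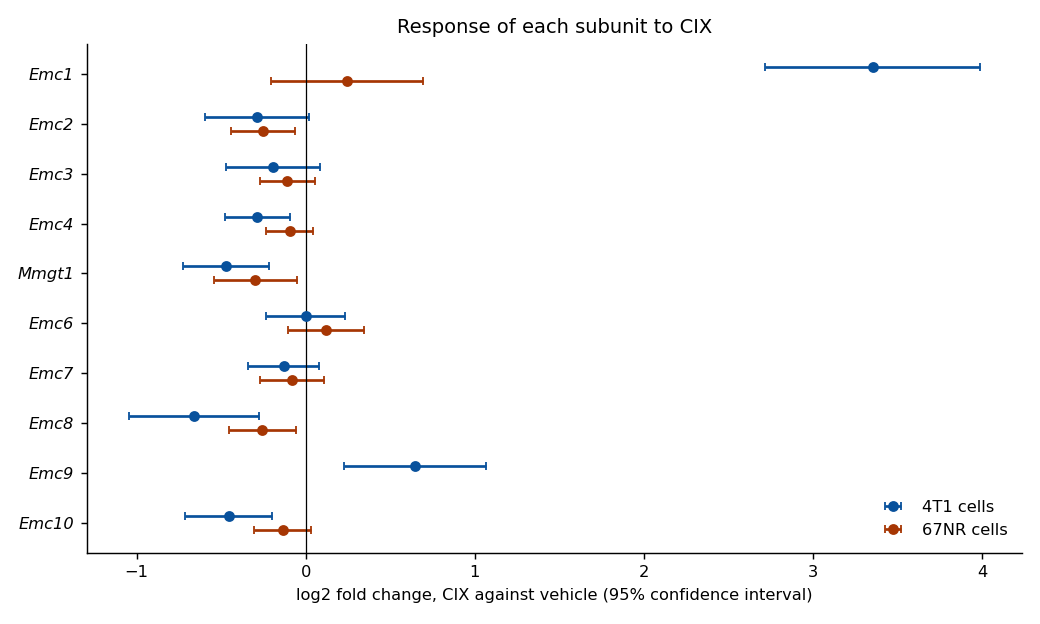
Log2 fold change between CIX and vehicle for each subunit with its 95% confidence interval from limma-voom, in 4T1 cells (blue) and 67NR cells (brown), 4 samples per group. Emc1 in 4T1 lies at 3.35, all other estimates lie between −0.66 and 0.65, and Emc9 has no estimate in 67NR, where it did not pass the filter on low values.

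The paralogs Emc8 and Emc9 lay on opposite sides of 0 in 4T1 cells. Emc8 was 84.9, 70.5, 75.2 and 57.9 CPM with vehicle and 61.5, 42.0, 43.8 and 38.7 CPM with CIX (log2 fold change −0.66 ± 0.17 SE, adjusted p = 0.0121 by limma-voom). Only the CIX sample numbered 4 reached above the lowest vehicle sample. Emc9 was 13.7, 27.1, 17.4 and 19.6 CPM with vehicle and 26.3, 30.7, 31.7 and 31.1 CPM with CIX (log2 fold change 0.65 ± 0.19 SE, adjusted p = 0.0199 by limma-voom). Its groups overlapped through the vehicle sample numbered 7, and neither paralog passed the threshold of 0.001. Per length, Emc9 made up 22.4%, 40.9%, 29.4% and 37.8% of the sum of both paralogs with vehicle, and 43.4%, 56.7%, 56.5% and 59.1% with CIX. All CIX samples thus had a higher share of Emc9 than all vehicle samples, a description of a measure formed after the levels were seen. The sum of the paralogs was 88.9 TPM on average with vehicle and 78.2 TPM with CIX.

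In 67NR cells Emc9 was close to the floor. The rounded counts were 6, 1, 3 and 3 with vehicle and 4, 3, 6 and 2 with CIX, or between 0.0445 and 0.273 CPM. Emc8 in these samples was at 59.2 to 63.6 CPM with vehicle and 45.2 to 58.0 CPM with CIX. Emc9 thus made up at most 0.992% of the paralog sum in any 67NR sample. The level of Emc9 in vehicle treated 4T1 cells was 144-fold that of vehicle treated 67NR cells (1836 counts against 13, 95% exact interval 83.9 to 271), and with CIX the ratio was 190 (3024 counts against 15, interval 115 to 340). These intervals cover counting error only. Emc9 did not pass the filter on low values in the comparisons within 67NR and between the untreated lines and has no main test there. The nearest expressed genes to Emc9, named after their values were seen, are Psme1, whose end overlaps that of Emc9 on the other strand, Psme2 and Rnf31. With vehicle their mean levels were 19.3, 61.7 and 22.6 CPM in 67NR and 109, 98.7 and 81.0 CPM in 4T1. All 3 were thus lower on average in 67NR, as Emc9 was, and none of the 3 was near the floor there.

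**Figure D4:**
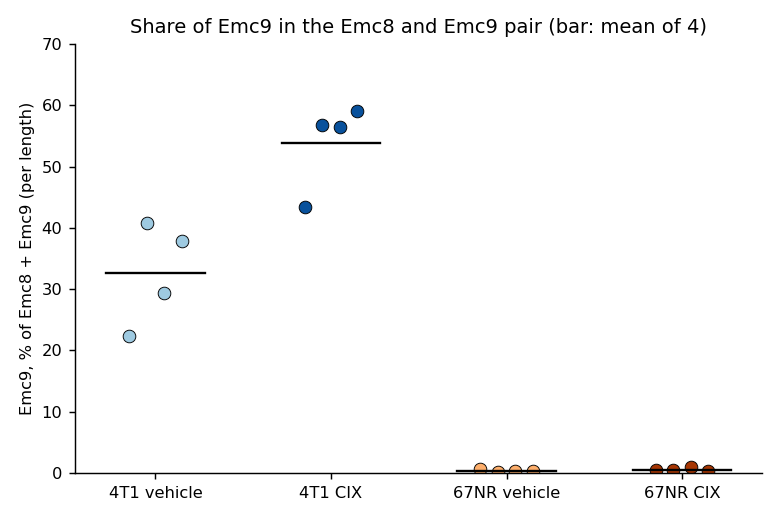
Share of Emc9 in the summed level per length of Emc8 and Emc9, for each sample (points) and as the mean (bar) of each group. It lies between 22.4% and 40.9% in vehicle treated and between 43.4% and 59.1% in CIX treated 4T1 samples, and below 1% in the 8 samples of 67NR.

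In 67NR cells none of the subunits passed the test. Of the 9 subunits tested there, Emc1 included, limma-voom called 0, where 45 genes or 0.389% of 11566 were called. An unadjusted p below 0.05 was found for 3 of them (Emc2, Mmgt1 and Emc8), where 32.8% of all genes tested had one. Both edgeR and DESeq2 called 0, at backgrounds of 0.398% and 9.00%, with 3 at an unadjusted p below 0.05, at backgrounds of 33.0% and 33.3%. With an adjusted p below 0.05, limma-voom and edgeR had 0 of the 9 and DESeq2 had 1 (Emc2, adjusted p = 0.0443), where 17.8% of all genes tested passed in either direction with limma-voom and with edgeR and 22.6% with DESeq2. Emc2 was 44.2, 43.7, 47.5 and 48.9 CPM with vehicle and 43.4, 36.8, 38.0 and 38.3 CPM with CIX (log2 fold change −0.25 ± 0.08 SE, adjusted p = 0.0681 by limma-voom). Mmgt1 was 26.8, 25.0, 29.9 and 24.9 CPM with vehicle and 23.7, 22.2, 23.9 and 18.4 CPM with CIX (log2 fold change −0.30 ± 0.11 SE, adjusted p = 0.0933). For Emc8 the log2 fold change was −0.26 ± 0.09 (SE, adjusted p = 0.0745). Together with Emc4, these were the 4 subunits of the 9 whose CIX samples were all below the vehicle samples, and 0 were all above, where 10.6% of all genes tested were entirely below and 12.7% entirely above. The remaining estimates for Emc3, Emc4, Emc6, Emc7 and Emc10 lay between −0.14 and 0.12, with adjusted p between 0.245 and 0.559. The intervals of these 5 subunits reached no lower than −0.30 and no higher than 0.35.

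The test of the difference in response between the lines called none of the other 9 subunits (limma-voom interaction term over all 16 samples), where 992 genes or 7.86% of 12613 were called. Emc9 entered this comparison only through its level in 4T1, and with an SE of 0.72 its difference was measured too poorly to be read. Emc4 and Emc10 had an unadjusted p below 0.05, where 39.1% of all genes tested had one. Both edgeR and DESeq2 called 0, at backgrounds of 8.06% and 15.7%, with 2 at an unadjusted p below 0.05, at backgrounds of 39.7% and 41.0%. The differences of Emc4 and Emc10, 4T1 minus 67NR, were −0.19 ± 0.09 (SE, adjusted p = 0.121) for Emc4 and −0.32 ± 0.14 (SE, adjusted p = 0.0918) for Emc10. No subunit of the 9 passed an adjusted p below 0.05 in this fit, where 29.3% of all genes tested did. Emc4, Emc8 and Emc10 each passed that level in some alternative fits and not in others. The largest of the 9 differences was that of Emc8, at −0.41 with a 95% confidence interval of −0.82 to 0.01. The interval of Emc9 ran from −1.14 to 1.91 because the 67NR counts were so low. For Emc2, Emc3, Emc6 and Emc7 the intervals lay within −0.41 and 0.30.

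Without CIX, 1 subunit of the 8 tested differed between the lines at the threshold of 0.001, namely Emc10. In this comparison 40.0% of the 11044 genes tested were called, so a single call among 8 is below that background. Emc10 was at 95.8 to 107 CPM in 4T1 and at 187, 181, 180 and 148 CPM in 67NR, a 1.76-fold lower level in 4T1 (log2 fold change −0.81 ± 0.09 SE, adjusted p = 3.34e-05 by limma-voom). The lowest 67NR sample was still above the highest 4T1 sample, and the levels with CIX kept this order, at 60.6 to 82.7 CPM in 4T1 and 154 to 168 CPM in 67NR. With an adjusted p below 0.05, Emc2 (log2 fold change 0.34 ± 0.09, adjusted p = 0.00759), Mmgt1 (0.24 ± 0.09, adjusted p = 0.0486) and Emc6 (0.24 ± 0.09, adjusted p = 0.0486) were higher in 4T1, where 33.3% of all genes tested were higher and 34.1% lower at that level. Emc2 and Mmgt1 had all 4T1 samples above all 67NR samples, as had 31.3% of the genes tested. Only Emc10 of the 8 had them all below, as had 30.3% of the genes tested. Emc3, Emc4, Emc7 and Emc8 had estimates between −0.29 and 0.19 with overlapping groups and adjusted p between 0.0727 and 0.682. Leaving out 1 sample in turn moved them as far as −0.40 for Emc3, −0.28 for Emc7 and 0.33 for Emc8.

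The order of the subunits by level per length was stable at the top. Emc10 was the highest in each of the 4 groups, at 124 ± 7.72 TPM (SD, n = 4) in vehicle treated 4T1 cells, 86.3 ± 11.5 with CIX, and 204 ± 26.5 and 186 ± 6.00 in 67NR without and with CIX. Emc4 followed at between 81.3 and 104 TPM on average, and Emc3 at between 63.9 and 88.3 TPM. The ranges of Emc10 and Emc4 overlapped only in CIX treated 4T1 cells, and those of Emc4 and Emc3 only in vehicle treated 67NR cells. Emc6, Emc8 and Emc2 formed a middle group between 36.1 and 64.3 TPM, in which neighbours in the order overlapped in vehicle treated cells of either line. Emc9 lay below this group in vehicle treated 4T1 cells, at 29.1 ± 8.73 TPM, and within it in CIX treated 4T1 cells, at 41.9 ± 3.41 TPM, where its range overlapped those of Emc2 and Emc8. Emc7 and Mmgt1 were low in all groups, between 11.7 and 14.3 TPM for Emc7 and between 6.48 and 9.91 TPM for Mmgt1. Emc1 was the lowest of the 10 in vehicle treated 4T1 cells, at 1.56 ± 0.57 TPM, below Mmgt1 with no overlap. In the other 3 groups Emc1 took a place next to Emc7, at 14.8 ± 3.61 TPM in CIX treated 4T1 cells, 17.9 ± 3.54 TPM in vehicle treated 67NR cells and 21.5 ± 4.59 TPM in CIX treated 67NR cells. Its range overlapped that of Emc7 in the former pair and not in the last. Emc9 was the lowest in both 67NR groups, at 0.19 and 0.23 TPM. TPM values depend on the mean length of the annotated transcripts, from 842 bases for Emc4 to 5826 for Emc7.

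Emc1 lies head to head with Mrto4, which encodes a nucleolar factor in the assembly of the large ribosomal subunit. The start of Mrto4 on the minus strand and that of Emc1 on the plus strand are separated by 10 bases. Mrto4 shared the pattern of Emc1 at a smaller size. It was 18.0, 8.95, 12.3 and 12.5 CPM in vehicle treated 4T1 cells and 43.6, 40.8, 39.1 and 42.8 CPM with CIX, without overlap. Mrto4 rose with CIX in 4T1 by a log2 fold change of 1.70 ± 0.18 (SE, adjusted p = 0.000162 by limma-voom). In 67NR it was 69.4 to 83.2 CPM with vehicle and 65.8 to 70.4 CPM with CIX (log2 fold change −0.18 ± 0.07, adjusted p = 0.0981), and its response differed between the lines by 1.88 ± 0.18 (SE, adjusted p = 5.50e-06). Unlike Emc1, Mrto4 in CIX treated 4T1 cells stayed below all 67NR samples. A share of 17.8% of the 31-base words of its transcripts also occurs in other genes, mostly its processed copies Mrto4-ps1 and Mrto4-ps2, against 2.63% of those of Emc1.

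On the other side, transcripts of Ubr4, a large ubiquitin ligase gene, start on the same strand as Emc1, with 21 bases between both starts, and the genes overlap. Ubr4 was 146 to 258 CPM in vehicle treated and 175 to 265 CPM in CIX treated 4T1 cells, with overlapping groups (log2 fold change 0.17 ± 0.19 SE, adjusted p = 0.501 by limma-voom). Emc1 and Ubr4 share 1.19% of the words of Emc1, and the level of Ubr4 did not separate the groups as that of Emc1 did. Of the next genes outward, Akr7a5, an aldo-keto reductase gene, had a log2 fold change of 0.57 ± 0.12 (SE, adjusted p = 0.00497) and Iffo2 one of −0.14 ± 0.16 (SE, adjusted p = 0.497) in 4T1, neither past the threshold. Of these 4 neighbours 1 was called in 4T1, Mrto4, at a background of 9.32% of all genes tested. Between the untreated lines, Mrto4 (−2.60 ± 0.17 SE) and Akr7a5 (−0.72 ± 0.11 SE, adjusted p = 0.000252 by limma-voom) were called lower in 4T1. Ubr4 and Iffo2 were not called there, and 40.0% of all genes tested were.

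A head-to-head arrangement was frequent among the subunits. With starts within 1000 bases, or overlapping by up to as much, 5 of the 10 subunits had a protein-coding partner on the other strand. Of 21992 protein-coding genes 10.7% had one. At a distance of up to 100 bases 4 of 10 subunits had a partner, against 2.82%. These backgrounds hold all annotated protein-coding genes, expressed or not, and were not matched to the subunits. The sequences between the starts are shown for the 4 pairs that do not overlap, since they are the shared stretch upstream of both genes. They are read from RefSeq promoter windows of GRCm38.p6 on the strand of the subunit, with the bases between the starts in capitals and 10 bases of the partner (left) and of the subunit (right) in lower case.
Emc1 and Mrto4, chr4:139352567-139352596, plus strand: cttgaggcccGGTGCATGCCgggctggcgg
Emc3 and Fancd2, chr6:113531643-113531691, minus strand: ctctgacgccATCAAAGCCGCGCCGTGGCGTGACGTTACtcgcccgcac
Emc6 and Tax1bp3, chr11:73177028-73177092, minus strand: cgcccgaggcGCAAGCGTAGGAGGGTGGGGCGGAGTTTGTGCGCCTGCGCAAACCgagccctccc
Emc10 and Fam71e1, chr7:44496520-44496590, minus strand: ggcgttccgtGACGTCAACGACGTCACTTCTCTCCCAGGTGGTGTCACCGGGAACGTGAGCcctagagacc
The starts are 10, 29, 45 and 51 bases apart in this order. The fifth pair, Emc8 and Cox4i1, overlaps by 352 bases at its starts.

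The partners, chosen after their values were seen, did not all follow their subunit. Fancd2, a DNA repair gene of the Fanconi pathway, was 15.3, 15.8, 18.6 and 20.9 CPM in vehicle treated and 31.7, 34.9, 34.6 and 35.7 CPM in CIX treated 4T1 cells. It rose by a log2 fold change of 0.95 ± 0.12 (SE, adjusted p = 0.000452 by limma-voom), while Emc3 on the other strand was at −0.19 ± 0.12. In 67NR cells the log2 fold change of Fancd2 was −0.69 ± 0.13 (SE, adjusted p = 0.00886), and that of Emc3 −0.11 ± 0.07. Tax1bp3 had −0.39 ± 0.17 (SE, adjusted p = 0.0873) in 4T1 next to 0.00 for Emc6. Cox4i1, a subunit of cytochrome c oxidase, had −0.07 ± 0.08 (SE, adjusted p = 0.493) next to −0.66 for Emc8. Fam71e1 was 3.79, 3.58, 5.85 and 1.85 CPM with vehicle and 0.323, 0.0858, 0.0716 and 0.0805 CPM with CIX in 4T1, the last 3 at 2 counts each, and did not pass the filter there. Its partner Emc10 was lower with CIX by 1.37-fold in the same samples. In the interaction, which Fam71e1 entered through 67NR, its difference missed the threshold (adjusted p = 0.0181).

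**Figure D5:**
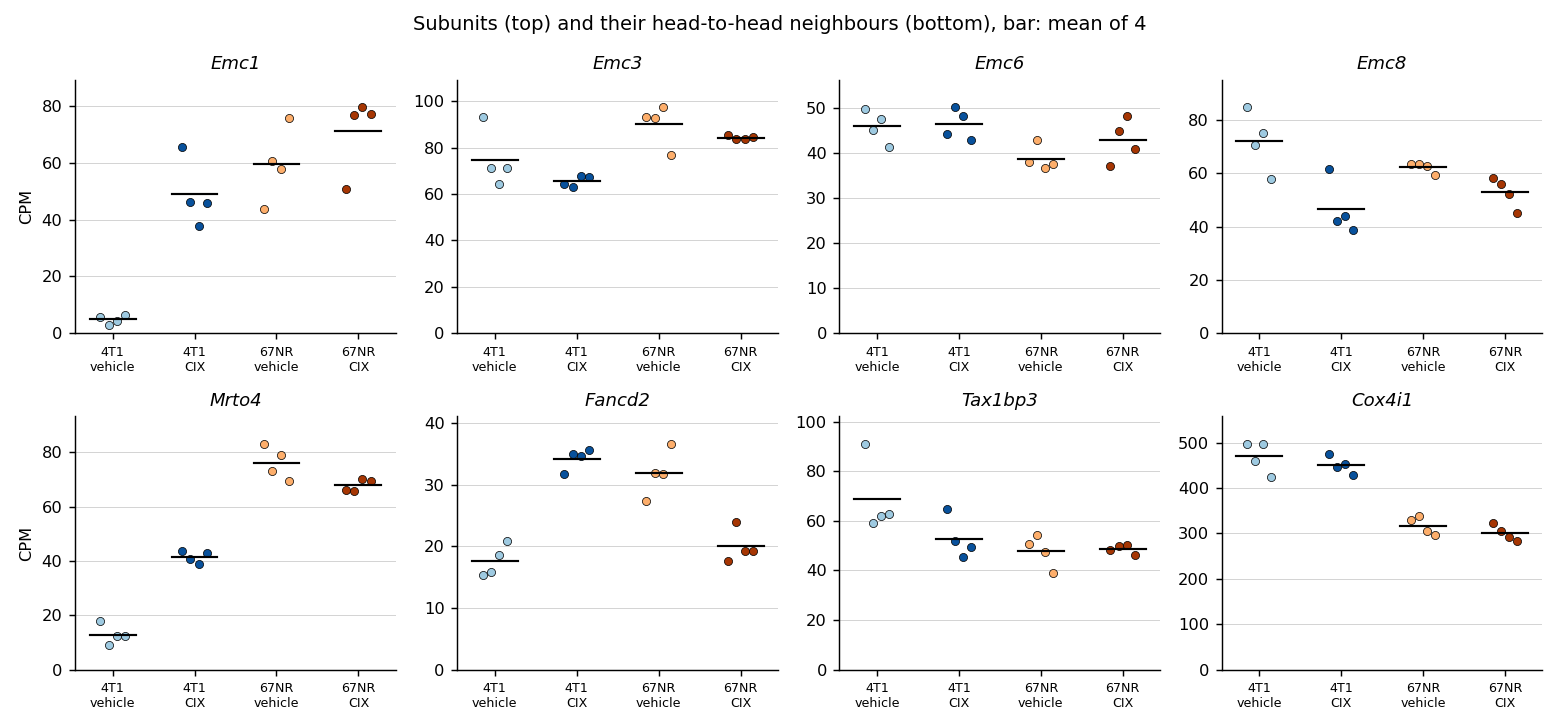
Levels in CPM of 4 subunits (top) and of the genes that start next to them on the other strand (bottom), for each sample (points) and as the mean (bar) of each group. Emc1 and Mrto4 are both lowest in vehicle treated 4T1 cells, whereas Fancd2 is higher with CIX in 4T1 and Emc3 is not, and Cox4i1 overlaps between vehicle and CIX in 4T1.

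Promoter windows from 250 bases before to 50 bases after the start were held by the RefSeq table for 7 of the 10 subunits, 8 windows in all, since Emc10 has 2. Emc2, Mmgt1 and Emc8 had no entry. The windows of Emc1, Emc3, Emc4, Emc6, Emc7 and Emc10 held between 19 and 28 CG pairs, that of Emc9 held 11, and the median of all 32851 windows was 7. Emc1 and 1 of the Emc10 windows were the richest, at 28 CG pairs and a GC content of 70.7% and 62.7%. The 100 bases before the annotated start of Emc9, the subunit near the floor in 67NR, are shown with their 4 CG pairs in capitals.
Emc9, chr14:55585303-55585402, minus strand: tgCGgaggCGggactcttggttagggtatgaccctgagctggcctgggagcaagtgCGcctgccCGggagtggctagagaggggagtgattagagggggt
No annotated exon of another gene lies in this stretch. The letters CCAAT were found on either strand in the windows of Emc6 and Emc9, against 37.4% of all windows, and GGGCGG in those of Emc1, Emc6 and Emc10, against 35.7%. The letters CCGGAAG were found in the windows of Emc3, Emc4 and Emc7, against 8.86%. TGACGTCA, the palindromic cAMP response element, was found in both windows of Emc10, against 1.79% of all windows, and overlaps the boundary between the lower case and the capitals above. The ER stress response element (CCAAT and CCACG, 9 bases apart) was found in 0 of the 8 windows, and in 0.119% of all windows. These matches describe letters and no binding.

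The genes most like Emc1 across the 16 samples lay outside the complex. By Pearson's r of log2 CPM over 12612 other genes, the 5 nearest were Efnb1 (0.985), Snrpa1 (0.981), Aarsd1 (0.979), Katnal1 (0.979) and Zbed3 (0.979), each on another chromosome than Emc1. The 16 samples share libraries and fall into 4 groups, so these values mostly follow the differences between groups. Efnb1, which encodes ephrin-B1, was 1.15, 1.09, 1.51 and 1.68 CPM in vehicle treated and 5.94, 6.61, 5.15 and 5.15 CPM in CIX treated 4T1 cells, and its mean was 6.54 CPM in vehicle treated 67NR cells. Snrpa1, a subunit of the U2 snRNP, had group means of 9.49, 44.8, 53.4 and 54.9 CPM in the order 4T1 vehicle, 4T1 CIX, 67NR vehicle and 67NR CIX. Katnal1, a katanin-like microtubule severing subunit, came closest to Emc1 in the size of its difference in 4T1, at a log2 fold change of 3.19. Mrto4 was number 85 in this order (0.951). The other subunits had values between 0.38 for Emc10 and −0.80 for Emc2.

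Other machinery of the endoplasmic reticulum was examined as lists of genes with known roles. In 4T1 cells with CIX, where 9.32% of all genes tested were called, limma-voom called 0 of 8 genes of the Sec61 translocon, 0 of 4 of the translocon-associated TRAP complex, 0 of 6 of the GET pathway for tail-anchored proteins, 0 of 5 of signal peptidase and 0 of 21 ER chaperones and unfolded protein response genes. At an adjusted p below 0.05, 12 of these 21 and 6 of 9 genes of the signal recognition particle and its receptor were lower, where 20.8% of all genes tested were, and 3 and 2 were higher, where 21.9% were. Those higher were Atf6, Ddit3 (1.37 ± 0.49) and Ern1 of the former and Srp68 and Srprb (1.70 ± 0.31) of the latter, with log2 fold changes and SE for the largest of each list. At the same level 2 of 8 Sec61, 2 of 4 TRAP, 1 of 6 GET and 1 of 5 signal peptidase genes were lower. So were 2 of 12 genes of the oligosaccharyltransferase, 5 of 18 of ER-associated degradation and 1 of 7 of the multipass translocon. Higher, in the same order of lists, were 1, 0, 1, 0, 1, 2 and 3 genes. Among the multipass translocon genes, 2 of 7 were called at the threshold of 0.001, both higher. They were Wdr83os, whose product Asterix binds transmembrane segments in the PAT complex, and Ncln, which encodes nicalin. Wdr83os was 7.37, 3.97, 4.00 and 4.97 CPM with vehicle and 25.9, 16.9, 15.3 and 19.7 CPM with CIX (log2 fold change 1.93 ± 0.25 SE, adjusted p = 0.000441). Ncln was 46.5, 19.4, 25.9 and 28.9 CPM with vehicle and 91.7, 84.8, 75.6 and 77.0 CPM with CIX (log2 fold change 1.49 ± 0.22 SE, adjusted p = 0.000761). Both resembled Emc1 in that vehicle treated 4T1 cells were lowest, but both stayed below all 67NR samples with CIX. Among the rest, Srp68 of the signal recognition particle (1 of 9 called, 0.62 ± 0.08) and Krtcap2 of the oligosaccharyltransferase (1 of 12 called, 0.69 ± 0.10) rose, and Syvn1, the ubiquitin ligase of ER-associated degradation, fell (1 of 18 called, −1.49 ± 0.22). The median log2 fold changes of the lists ran from −0.46 for the chaperones to 0.16 for the multipass translocon, beside −0.29 for the EMC without Emc1 and −0.01 for all genes.

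In 67NR cells, where 0.389% of all genes tested were called, 1 gene of these lists was called, Manf, an ER stress induced factor, at a log2 fold change of −0.75 ± 0.07 (SE, adjusted p = 0.000879 by limma-voom). At an adjusted p below 0.05, 10 of the 21 chaperone genes were lower and 3 higher. Of all 11566 genes tested, 1071 were lower and 986 higher, or 17.8% in either direction. Also lower were 3 of 8 Sec61, 2 of 4 TRAP, 2 of 5 signal peptidase and 4 of 12 oligosaccharyltransferase genes. ER-associated degradation had 2 of 18 lower, multipass translocon 1 of 7, GET 0 of 6 and signal recognition particle 1 of 9 lower and 1 higher. The tested proteins reported elsewhere to need the EMC, Fdft1 and Soat1, were higher. The interaction, with 7.86% of all genes tested called, called Wdr83os (2.25 ± 0.25), Ncln (1.63 ± 0.23), Krtcap2 (0.59 ± 0.11), Syvn1 (−1.37 ± 0.24) and Fdft1 (−1.10 ± 0.19), with adjusted p between 1.35e-05 and 0.000683. Fdft1, which encodes squalene synthase, is a tail-anchored client of the EMC. It was 287 and 232 CPM on average in 4T1 without and with CIX and 97.2 and 168 CPM in 67NR. Between the untreated lines, 4 of 7 multipass translocon genes were called, all lower in 4T1, led by Wdr83os (−3.30 ± 0.18), Ncln (−2.56 ± 0.22) and Tmem147 (−1.05 ± 0.15). The 2 measured EMC clients, Fdft1 (1.54 ± 0.14) and Soat1 (1.66 ± 0.15), were both higher in 4T1, while the remaining listed client, Adrb1, was at 0 counts in every sample. At a background of 40.0% called, TRAP had 0 of 4 genes called. Sec61 had 2 of 8 higher and 1 lower (Sec63 1.08 ± 0.09, Sec61a2 0.83 ± 0.10 and Tram2 −0.85 ± 0.13), and the GET pathway had 1 of 6 higher and 1 lower (Get4 0.87 ± 0.14 and Ubl4a −0.94 ± 0.11). The signal recognition particle and its receptor had 3 of 9 higher and 1 lower, with the receptor subunits Srpr (2.10 ± 0.12) and Srprb (−2.94 ± 0.45) and with Srp19 (1.04 ± 0.17) differing most. Signal peptidase had 1 of 5 higher, Sec11c (1.46 ± 0.23), and the oligosaccharyltransferase 3 of 12 lower, Rpn1 (−1.28 ± 0.22), Krtcap2 (−0.97 ± 0.09) and Ost4 (−0.88 ± 0.13). ER-associated degradation had 7 of 18 higher and 3 lower, led by Erlec1 (−1.30 ± 0.12), Ubxn4 (1.22 ± 0.08) and Derl1 (1.05 ± 0.10). The chaperones had 4 of 21 higher and 1 lower, led by Dnajb9 (1.11 ± 0.14), Hspa5 (1.06 ± 0.16), which encodes BiP, and Sdf2l1 (0.77 ± 0.13). These differences between the lines are log2 fold changes with their SE.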

How the data were processed

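RNA of 4T1 and 67NR cells given vehicle or CIX was analysed in 16 samples, 4 in each group. The authors quantified reads with Salmon (version 0.12 in the submitters' processing notes) on Ensembl GRCm38 and imported them per gene through tximport. They deposited the resulting estimated counts, neither normalized nor filtered, for 33072 genes. The scaling used by tximport is not given in the sources used here. Only 0.0436% of the values above 0 were whole (within 1e-06), and the first peak of low values lay between 0.85 and 1.05 depending on the sample, so the values were treated as counts scaled for length. This bears on levels compared between genes, while a factor common to all samples of a gene leaves its fold changes between groups as they are. The submitters' notes name a human build, GRCh38, and the mouse gene identifiers of the table were followed instead. All 16 columns were mapped to samples by their titles, and groups were taken from the labels.

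Estimated counts were rounded. GENCODE M21 (GRCm38) gave symbols, positions and mean transcript lengths for 99.51% of the genes, and TPM was the estimated count divided by that length, scaled to a common sum. The study's methods leave out genes with TPM below 1 in more than 3 samples. Here this was applied to the samples of each comparison (in the interaction to each line, passing in either being enough), which decides where Emc9 was tested. Differences were fitted by limma-voom after TMM scaling (limma 3.58.1, edgeR 4.0.16, R 4.3.3), with Benjamini-Hochberg adjusted p below 0.001 over all genes tested. SE and 95% confidence intervals are those of the moderated fit. Every adjusted p named in the text without a tool is from limma-voom. The ratio of Emc1 to the other subunits was tested by an exact permutation test in 67NR. Groups are called not overlapping when all CPM of a group lie above all of the other. With the samples as replicates, p-values measure only the spread between them. The limma-voom code was also run on simulated counts with changed genes. How small a change the threshold could recover is not given, and no result above rests on that run.

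The members and gene lists were chosen with earlier results of these data known. The text names all 10 subunits, the 2 nearest protein-coding genes on each side of Emc1, the 5 genes most like it, and up to 3 called genes of each list with the largest log2 fold change. Listed names that were not in the table or did not pass the filter are not in the list counts. As alternatives, the data were fitted with DESeq2 1.42.0 (Wald) and edgeR (quasi-likelihood), and limma-voom was repeated with size factors of DESeq2, with library size only, with no filter or a CPM filter, on log2(TPM + 1) without voom, at a threshold of 0.05, over all samples and without each sample in turn. A block for sets of consecutive sample numbers and a filter over all 16 samples were added after seeing the data. Words of 31 bases shared between transcripts of different genes were counted. Promoter sequences are from RefSeq (GRCm38.p6), with figures drawn by matplotlib 3.10.9. The library kit was strand-specific, and whether quantification used the strand is not given in the sources used here.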

Additional observations from a re-analysis of the deposited data

Results flagged for a closer look

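In each of the 40 sets of 4 values (10 subunits in 4 groups), the gap of the extreme sample to its neighbour was compared with the range of the set by Dixon's 95% critical value, which chance alone would pass in about 2 of 40. The gap passed in 2. In CIX treated 67NR cells, Emc1 was 50.84 CPM in the sample numbered 2 and 77.0 to 79.7 CPM in the others. Without this sample the log2 fold change of Emc1 in 67NR was 0.40, against 0.24 with all samples and 0.10 without the vehicle sample numbered 1, and it was not called in any of these fits. In vehicle treated 4T1 cells, Emc10 was 107.3 CPM in the sample numbered 3 and 95.8 to 97.4 CPM in the others.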

How the results depend on the processing

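In 4T1, 1087 genes were called by limma-voom, 3095 with DESeq2, 2680 with all 16 samples in a common fit and 4981 at a threshold of 0.05. In 67NR, 45 were called by limma-voom, 1041 with DESeq2, 151 with all 16 samples, 27 on log2(TPM + 1) and 2057 at 0.05. The interaction called 992 genes, 1980 with DESeq2 and 3699 at 0.05, and the untreated lines 4419 and 7449 at 0.05. Leaving out 1 sample gave 287 to 1049 calls in 4T1, namely 721, 287, 591 and 409 without the vehicle samples 3, 7, 11 and 15, and 1049, 353, 536 and 411 without the CIX samples 4, 8, 12 and 16. It gave 0 to 69 calls in 67NR, with 0 without the vehicle samples 5 or 9 or the CIX samples 6, 10 or 14, 2 without vehicle sample 1, 15 without vehicle sample 13 and 69 without CIX sample 2, and 651 (without 4T1 vehicle sample 7) to 1072 in the interaction. Of the 9 tested subunits in 4T1, DESeq2 called 1 (Mmgt1) and the threshold of 0.05 called 5. Between the untreated lines, 2 were called without the filter (Emc9 and Emc10) and 4 at 0.05, and leaving out 1 sample gave 1 to 2, the 2 being Emc9 and Emc10 whichever 67NR vehicle sample was left out. Emc9 was below a TPM of 1 in all 4 of these, so that leaving out 1 lets it pass the filter through 4T1. Emc10 was called in every fit of that comparison. In 4T1 a common fit of all 16 samples by limma-voom gave Emc2 an adjusted p of 0.0460. The same fit brought Emc4, Mmgt1, Emc8, Emc9 and Emc10 close to the threshold of 0.001, at adjusted p between 0.00105 (Emc8) and 0.00287 (Emc9). With the filter over all 16 samples, also added after seeing the data, Emc9 was tested in no comparison and no call of another subunit changed. In 67NR and in the interaction no alternative called one of the tested subunits. The cause of the other shifts was not tested.

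Of 790 single estimates under the alternatives, 1 passed the threshold of 0.001 where that of limma-voom as reported did not (Mmgt1 in 4T1 with DESeq2), 8 more counted as passed only at the threshold of 0.05, 3 values of Emc1 moved by over 1 SD (all on log2(TPM + 1), where its log2 fold change in 4T1 was 2.62), and 14 changed sign without a call in either fit. Emc1 relative to the other subunits differed by 3.42 to 3.86 in 4T1 and by 0.34 to 0.70 in 67NR. With 4 samples per group, the exact test could not give a p below 0.0286.

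The groups share no replicate numbers, but the sample numbers run in sets of 4 that hold a sample of every group, and a replicate block for these sets was added after seeing the data. The labels do not say what a set is. Deviations from the group means correlated above 0.1 in 3 of 4 vehicle and CIX pairs of a set in 4T1 (0.0429 to 0.342). In 67NR 1 of 4 pairs did (−0.0741 to 0.127). In 4T1 5 of 8 samples and in 67NR 4 of 8 correlated best with their own set. Between the untreated lines 2 of 8 did, with a median correlation of −0.153 within sets and 0.073 across sets. The sets are thus a hint from the data and not a pairing. With the block, limma-voom called 1144 genes in 4T1, 0 in 67NR, 1093 in the interaction and 3007 between the untreated lines, and it changed no call of a subunit. Emc8 and Emc10 then had an adjusted p of 0.0340 and 0.0361 in the interaction. Without the 4T1 CIX sample 4 and without the block these were 0.0206 and 0.0492, and Emc4 had 0.0321 on log2(TPM + 1). In 67NR, Emc1 relative to the other subunits was higher with CIX in 4 of 4 sets, by 0.35 to 0.70, at p = 0.125 by an exact two-sided test of sign changes, the smallest that 4 sets allow, and the SE of its log2 fold change was 0.10 in place of 0.20 (adjusted p = 0.168).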
